A study of Mus musculus with 2 samples.

Results

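The genes described here are 8 Krüppel-like factors (KLFs) of mouse blood stem and progenitor cells: Klf2, Klf3, Klf4, Klf6, Klf7, Klf10, Klf12 and Klf13. They are 8 of the 32285 genes in the deposited tables and were chosen by symbol, each symbol matching 1 gene, with Klf1, the erythroid member of the family, set aside. The data are single-cell RNA sequencing (10x Genomics 3' chemistry) of blood stem cells sorted from marrow of C57Bl6 mice with the genotype WT, 8 weeks of age per the series title. Short-term haematopoietic stem cells (ST-HSC) were sorted as lineage-negative, Sca-1-positive, Kit-positive cells lacking CD34 and carrying CD150 and CD48. Long-term stem cells (LT-HSC), which repopulate marrow for longer, were sorted in the same way but without CD48 and without Flk2. There was 1 library per group, so no difference between libraries has a replicate check, and the number of animals behind each is not given in the sources used here.

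KLFs are transcription factors that bind GC boxes and CACCC boxes in promoters through zinc fingers at the end of the protein, and they differ in the partners that the rest of the protein recruits. Klf2, Klf4, Klf6 and Klf7 belong to the branch that recruits acetyltransferases and mostly activates. Klf3 and Klf12 recruit the corepressor CtBP, and Klf10 and Klf13 recruit the corepressor Sin3. In blood, Klf2 is best known for holding lymphocytes in a resting state and for their trafficking, and Klf4 for monocyte development.

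A cell entered the comparisons if it had 1000 genes or more and if fewer than 10% of its unique molecular identifiers (UMIs, each standing for 1 captured RNA molecule) were mitochondrial. This left 6648 of 7586 barcodes in the ST-HSC library, with 111783180 UMIs and a median of 13402 per cell, and 2722 of 2938 in the LT-HSC library, with 64673871 UMIs and a median of 17595 per cell. The libraries shared 6 kept barcodes. Levels are given as CPM, the UMIs of a gene scaled to a total of 1000000 UMIs. RNA of 2 sorting genes, Slamf1 and Cd34, went against the labels. The CD150 gene Slamf1 stood at 1.26 CPM in the ST-HSC library and 26.6 CPM in the LT-HSC library, where the sort required CD150 of both. For Cd34, absent by design from both sorts, the levels were 242 CPM in ST-HSC and 29.2 CPM in LT-HSC. RNA of 2 others ran as the gates would have it. The Flk2 gene Flt3 stood at 291 CPM in ST-HSC and 5.51 CPM in LT-HSC, and Cd48 at 74.7 and 35.3 CPM, or 54.2 and 4.77 CPM in the cells called Hlf-only here. Both libraries are called by their labels all the same. To compare cells of unequal depth, 5000 UMIs were drawn at random from each cell, and 281 ST-HSC and 68 LT-HSC cells with fewer were set aside. Among the drawn UMIs, RNA of Hlf, a stem cell transcription factor, was found in 70.2% of cells in ST-HSC and 42.6% in LT-HSC. Car1, a carbonic anhydrase RNA of erythroid cells, was found in 9.66% of cells in ST-HSC and 43.0% in LT-HSC, and Pf4, the platelet factor of the megakaryocyte line, in 6.75% in ST-HSC and 24.8% in LT-HSC. Dntt, the terminal transferase of lymphoid precursors, was found in 24.5% of ST-HSC cells and in 3 LT-HSC cells, and Mpo, the myeloperoxidase of granulocyte and monocyte precursors, in 17.9% of ST-HSC cells and in 0 of 2654 LT-HSC cells, which allows a share of up to 0.139% of cells with an Mpo UMI among those drawn and does not limit expression. Over all UMIs of the LT-HSC library Mpo stood at 0.0776 CPM. LT-HSC cells were for that reason not compared by Dntt or Mpo.

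Promoters are shown for Klf2, Klf4 and Klf6, because RNA of these genes was found together in the same cells. The sequences are from RefSeq (GRCm38.p6) and end before the start of the gene in GENCODE M21. Capitals mark GC boxes (GGGCGG, or CCGCCC where the box lies on the other strand) and, in Klf2, a MEF2-like core. The MEF2-like core is CTA and TAG with 4 bases of any kind between them. It is a looser pattern than the sites that factors of the MEF2 family bind. The Klf2 stretch lies at chr8:72318812-72319032 on the plus strand, that of Klf4 at chr4:55532476-55532725 on the minus strand and that of Klf6 at chr13:5861239-5861481 on the plus strand.
Klf2: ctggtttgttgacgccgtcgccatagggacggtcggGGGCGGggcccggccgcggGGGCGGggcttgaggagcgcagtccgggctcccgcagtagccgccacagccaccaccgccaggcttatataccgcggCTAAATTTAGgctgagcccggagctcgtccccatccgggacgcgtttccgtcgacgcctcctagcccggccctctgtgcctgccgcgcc
Klf4: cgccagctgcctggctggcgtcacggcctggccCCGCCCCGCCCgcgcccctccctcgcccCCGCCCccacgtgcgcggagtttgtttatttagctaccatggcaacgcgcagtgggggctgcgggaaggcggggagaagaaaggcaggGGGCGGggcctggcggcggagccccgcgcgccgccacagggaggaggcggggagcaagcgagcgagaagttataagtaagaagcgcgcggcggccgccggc
Klf6: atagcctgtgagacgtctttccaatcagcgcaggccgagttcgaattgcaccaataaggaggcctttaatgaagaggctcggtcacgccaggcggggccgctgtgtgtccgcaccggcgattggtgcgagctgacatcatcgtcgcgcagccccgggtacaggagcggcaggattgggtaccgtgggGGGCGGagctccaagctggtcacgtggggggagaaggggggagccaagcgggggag
In the 250 bases before the RefSeq start, Klf2 held 2 GC boxes, Klf4 held 4 and Klf6 held 1, where 32.7% of 32851 RefSeq mouse promoters held at least 1 on either strand. The MEF2-like core was found in the Klf2 promoter, 118 bases before the start, and in 3.20% of all promoters, a share that counts every match of the loose pattern. Klf3 held 6 GC boxes, Klf13 held 3, Klf7 held 1 and Klf12 held 0, so 6 of the 7 members with an entry held a box. Klf10 had no entry. The bases read for Klf7 (chr1:64121390-64121639) and Klf12 (chr14:100149797-100150046) lie inside the genes as GENCODE M21 places them. The Klf12 stretch is far from the GENCODE start of that gene at chr14:100284679, so the count of 0 says nothing of that start. A match of letters does not show that a factor binds there.

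Between the libraries as a whole, Klf4, Klf7 and Klf12 were higher in ST-HSC and Klf2 and Klf10 were lower, while Klf3, Klf6 and Klf13 differed by less than 1.5-fold. A gene was called by size alone, at 1.5-fold or more in either direction among genes with a mean of at least 5 CPM, since no test between groups is possible with 1 library each. Intervals are 95% intervals of the UMI counts and cover counting error only. Of all 10412 genes measured, 24.9% were called higher in ST-HSC and 10.3% lower, 35.2% in all, so 3 members higher and 2 lower out of 8 is to be read against that. With 1 library each, the spread between animals is unknown. The median log2 ratio was 0.26 over the members and 0.12 over all genes measured.

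Klf12, a CtBP-binding repressor first described for its action on the AP-2 alpha gene, was at 75.5 CPM (73.9 to 77.1) in ST-HSC and 33.9 CPM (32.5 to 35.4) in LT-HSC, 2.22-fold higher (2.12 to 2.33). Klf4, one of the factors used to reprogram cells to pluripotency, was at 12.4 CPM (11.8 to 13.1) in ST-HSC and 6.06 CPM (5.48 to 6.69) in LT-HSC, 2.04-fold higher (1.83 to 2.29). Klf7, known from the outgrowth of nerve cell axons in mice, was at 20.1 CPM in ST-HSC and 11.9 CPM in LT-HSC, 1.69-fold higher (1.56 to 1.84). These 3 genes stood above their LT-HSC level by more than counting error, with no overlap of intervals. Klf2 was at 32.8 CPM (31.8 to 33.9) in ST-HSC and 57.7 CPM (55.8 to 59.6) in LT-HSC, a ratio of 0.569 (0.544 to 0.596). Klf10, named for its induction by TGF-beta, was at 39.2 CPM in ST-HSC and 62.3 CPM in LT-HSC, a ratio of 0.628 (0.602 to 0.656). Both were thus lower in ST-HSC by more than counting error. Klf13, known for activating the Ccl5 gene in T cells, had a ratio of 1.30 (1.26 to 1.34), Klf3 of 1.11 (1.05 to 1.16) and Klf6 of 0.966 (0.931 to 1.003).

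In such sums, fewer cells of a kind and less RNA per cell cannot be told apart. Without the cells that held Car1 or Pf4 RNA, 0 members were called higher and 3 lower: Klf4 stood at a log2 ratio of -0.00024 and Klf12 at -0.11, while Klf2 was lower at -1.74, Klf6 at -0.61 and Klf10 at -0.66. With every cell thinned to the same depth, Klf4 was 0.56 higher on the log2 scale, short of the limit, and Klf2 1.38 lower (-1.38). Scaling by the trimmed mean of M values moved all log2 ratios by -0.13 and median-of-ratios scaling by -0.15, with all 5 calls kept and Klf3 at -0.0028 under the second.

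**Figure D1:**
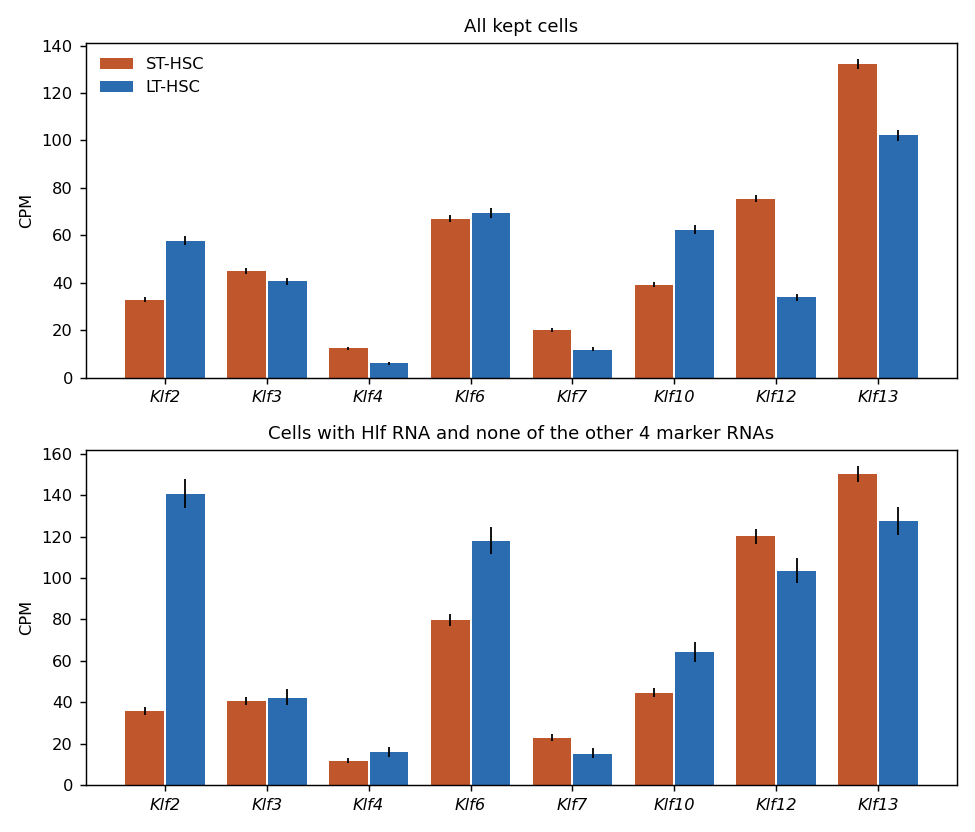
Level of each of the 8 genes in CPM (vertical axes, linear from 0) in the ST-HSC and LT-HSC libraries, over all kept cells (top) and over cells with Hlf RNA and none of the other 4 marker RNAs (bottom). Bars are levels of summed cells and lines are 95% counting intervals. Klf2 was lower in ST-HSC in both panels, by more in the bottom one (35.9 against 141 CPM), and Klf4 and Klf12 were about 2-fold higher in ST-HSC only in the top one.

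Among cells with Hlf RNA and none of the other markers, Klf2 was 3.93-fold lower in ST-HSC, Klf7 was 1.51-fold higher, and the other 6 members differed by less than 1.5-fold. Hlf-only cells, those with at least 1 Hlf UMI and none of Dntt, Mpo, Car1 or Pf4 after thinning, numbered 2475 in ST-HSC and 715 in LT-HSC. Here Klf2 was at 35.9 CPM (34.0 to 37.9) in ST-HSC and 141 CPM (134 to 148) in LT-HSC, a ratio of 0.255 (0.237 to 0.274). Klf7 was the other member called, at 22.8 CPM in ST-HSC and 15.1 CPM in LT-HSC, 1.51-fold higher (1.28 to 1.79), at the very edge of the limit. Of all 10709 genes measured in these cells, 29.3% were called, 16.8% higher and 12.5% lower, so 1 member in each direction out of 8 is near the background.

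The other 6 members stayed within 1.5-fold. Klf6, an activator whose RNA is quickly induced in many cell types, was at 79.8 CPM in ST-HSC and 118 CPM in LT-HSC, a ratio of 0.676 (0.633 to 0.722) that lies just inside the limit. Klf10 had a ratio of 0.694 (0.635 to 0.760) and Klf4 of 0.738 (0.617 to 0.886), so all 3 were lower in ST-HSC beyond counting error but not by enough to be called. Klf12 had a ratio of 1.16 (1.09 to 1.24), Klf13 of 1.18 (1.11 to 1.25) and Klf3 of 0.960 (0.864 to 1.07). The gate genes set the same cells apart, with Slamf1 at 1.34 CPM in ST-HSC and 42.1 in LT-HSC and Flt3 at 276 and 14.8 CPM. Cycling cells made up 24% of them in ST-HSC and 6.71% in LT-HSC. Hlf stood at 755 CPM in the Hlf-only cells of ST-HSC and 464 CPM in those of LT-HSC. Over all kept cells the median mitochondrial share of UMIs was 3.47% in ST-HSC and 1.6% in LT-HSC. What part the gate genes, the cell cycle, the Hlf level or the mitochondrial share has in the Klf2 difference was not tested.

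Klf2 RNA was spread unevenly over the Hlf-only cells of the LT-HSC library. After thinning, Klf2 was found in 356 of 2475 Hlf-only cells in ST-HSC (14.4%, interval 13.0 to 15.8) and in 238 of 715 in LT-HSC (33.3%, 29.8 to 36.9). In Car1-only cells, at the same drawn depth, the share was 1.84% in ST-HSC and 7.24% in LT-HSC; median depths before drawing were 12013 UMIs in ST-HSC and 12731 in LT-HSC for Hlf-only cells, and 36477 and 29584 for Car1-only cells. The variance of Klf2 UMIs per cell was 1.63 times their mean in ST-HSC and 6.95 times in LT-HSC, where independent counting gives a value near 1. The next value in LT-HSC was 2.22 for Klf6, and in ST-HSC Klf6, at 1.81, stood above Klf2.

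The highest Hlf-only cell held 9 Klf2 UMIs of 5000 in ST-HSC and 24 in LT-HSC. In ST-HSC, 28 cells with 3 to 9 UMIs held 20.8% of all Klf2 UMIs. In LT-HSC, 52 cells with 3 to 9 UMIs held 35.4%, and a further 12 cells (1.68%) with 10 to 24 held 30.7%. Cells with 1 or 2 Klf2 UMIs made up 13.3% of Hlf-only cells in ST-HSC and 24.3% in LT-HSC. Few cells with much Klf2 RNA thus held a large share of the LT-HSC level, and cells with little were also commoner there.

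**Figure D2:**
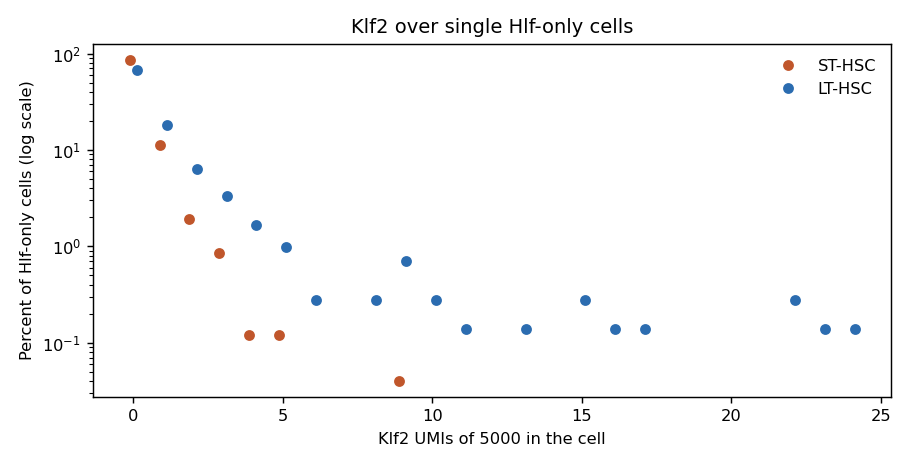
Share of Hlf-only cells (vertical axis, percent, log scale) by the number of Klf2 UMIs among the 5000 kept per cell (horizontal axis), for ST-HSC and LT-HSC. ST-HSC cells ended at 9 UMIs, and LT-HSC cells reached 24.

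The cells rich in Klf2 were also rich in immediate early RNA, the Fos, Jun, Egr and Ier genes that answer a stimulus within minutes. In ST-HSC, the 14 genes of the immediate early list summed to 1527 CPM in cells with no Klf2 UMI, 2536 CPM in those with 1 or 2 and 4539 CPM in those with 3 to 9. In LT-HSC the sums were 2979, 4507 and 7366 CPM over the same ranges and 9299 CPM in the 12 cells with 10 or more. Both libraries thus gave the same order. Cells richer in Klf2 were shallower in both, with medians of 12306, 10941.5 and 8474.5 UMIs over the 3 ranges in ST-HSC and 13355, 11833, 11104.5 and 7685 over the 4 in LT-HSC. The share of cycling cells over the first 3 ranges was 25.2%, 18.0% and 3.57% in ST-HSC and 7.55%, 5.75% and 3.85% in LT-HSC. The part of depth or cycling in this was not tested. Klf6 went with Klf2, at 500 CPM in the LT-HSC cells with 10 or more Klf2 UMIs and 85.8 CPM in those with none.

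The immediate early list itself was lower in ST-HSC: 9 of its 14 genes were called lower and 0 higher between the libraries, where 10.3% of all genes were lower and 24.9% higher, with a median log2 ratio of -0.98 against 0.12 over all genes. Summed over Hlf-only cells it stood at 1681 CPM in ST-HSC and 3684 CPM in LT-HSC. Ier2 was at 138 CPM in ST-HSC and 465 CPM in LT-HSC over all cells, Egr1 at 64.2 and 189 CPM and Jund at 186 and 527 CPM. In Hlf-only cells 9 of its 13 measured genes were lower in ST-HSC and 1 was higher, where 12.5% of all genes were lower and 16.8% higher.

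Hlf-only cells were also set side by side within 3 ranges of immediate early UMIs, a comparison added after seeing the data. Levels can still differ between libraries inside a range, above all in the highest, which has no upper limit. In cells with fewer than 10 immediate early UMIs of 5000 (1589 ST-HSC and 189 LT-HSC cells), Klf2 was at 21.9 CPM in ST-HSC and 40.1 CPM in LT-HSC, a ratio of 0.545 (0.447 to 0.669). With 10 to 19 such UMIs (657 and 247 cells) it was at 50.8 CPM in ST-HSC and 90.3 CPM in LT-HSC, 0.562 (0.490 to 0.646), and with 20 or more (229 and 279 cells) at 108 and 276 CPM, 0.391 (0.342 to 0.445). Klf2 was lower in ST-HSC in every range, by 1.78-fold to 2.56-fold, and by 3.93-fold with the ranges pooled. These intervals leave out the uneven spread of Klf2 over LT-HSC cells, where the variance was 6.95 times the mean. The 12 LT-HSC cells with 10 or more Klf2 UMIs held 30.7% of the drawn Klf2 UMIs. The ranges were not compared without those cells. Cycling and depth were not held equal within a range, and the part of immediate early RNA in the Klf2 difference was not tested. For Klf6 the ratio was 1.07 (0.900 to 1.27), 1.14 (1.01 to 1.29) and 1.15 (1.03 to 1.28) in the 3 ranges, and 0.676 when they were pooled. For Klf4 it was 1.46 (0.831 to 2.81), 1.66 (1.19 to 2.35) and 1.19 (0.900 to 1.57), and 0.738 pooled. Klf10 had ratios of 0.722, 0.880 and 1.01. The highest range held 9.25% of the Hlf-only cells in ST-HSC and 39.0% in LT-HSC.

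**Figure D3:**
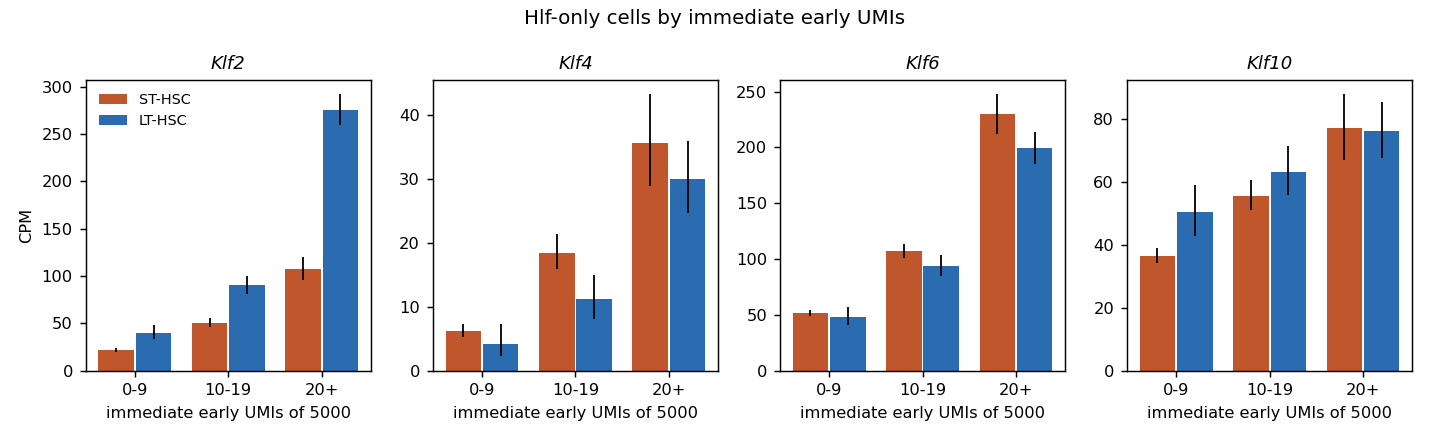
Level of Klf2, Klf4, Klf6 and Klf10 in CPM (vertical axes, linear from 0) in Hlf-only cells of ST-HSC and LT-HSC, in 3 ranges of immediate early UMIs among 5000 (horizontal axes). Lines are 95% counting intervals, which leave out the uneven spread of Klf2 over LT-HSC cells. All 4 genes were higher in the higher ranges in both libraries, and Klf2 alone kept ST-HSC well below LT-HSC in every range (108 against 276 CPM in the highest).

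Klf2, Klf4 and Klf6 went with immediate early RNA and with one another from cell to cell. In Hlf-only cells with Klf2 RNA, the immediate early genes gave 1.85 times the UMIs of cells without it in ST-HSC and 1.81 times in LT-HSC. The figures were 1.88 and 1.62 for Klf4 and 1.72 and 1.504 for Klf6, but 1.09 and 1.08 for Klf3 and 1.05 and 1.09 for Klf12. They differed between the libraries for Klf13, at 1.498 in ST-HSC and 1.06 in LT-HSC, for Klf10, at 1.33 and 1.10, and for Klf7, at 1.04 and 1.35. Klf6 UMIs per cell were 2.17-fold higher (1.89 to 2.48) in cells with Klf2 than in cells without it in ST-HSC, and 2.30-fold higher (1.92 to 2.76) in LT-HSC. Klf4 was 2.26-fold higher (1.61 to 3.18) in ST-HSC cells with Klf6 and 5.12-fold higher (2.93 to 9.40) in LT-HSC cells with it. In cells with Klf10, Klf4 was also higher, 1.80-fold (1.22 to 2.60) in ST-HSC and 1.93-fold (1.17 to 3.14) in LT-HSC. Klf6 in those cells had ratios of 1.19 (1.02 to 1.37) and 1.01 (0.821 to 1.23). Over all 56 ordered pairs of members the median was 1.18 in ST-HSC and 1.20 in LT-HSC, and 9 ST-HSC and 17 LT-HSC pairs reached 1.5. Each pair counts in both orders, and the interval lay above 1 for 26 ST-HSC and 18 LT-HSC pairs. These ratios and those of the immediate early genes were not computed for genes outside the members. Whether they are particular to these members therefore cannot be told. Klf3 UMIs in cells with Klf2 were 1.06 times (0.822 to 1.34) those in cells without it in ST-HSC and 1.21 times (0.850 to 1.70) in LT-HSC, within counting error. Klf6 UMIs in cells with Klf3 were 1.05 times (0.899 to 1.22) in ST-HSC and 1.32 times (1.06 to 1.64) in LT-HSC.

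In the LT-HSC library 4 members were called higher in cells with Hlf RNA than in the rest, and in ST-HSC only 1 was. In LT-HSC, Klf12 was at 84.4 CPM in the 1131 cells with Hlf RNA and 10.9 CPM in the 1523 without it, 7.74-fold higher (6.995 to 8.58). Klf2 was at 125 CPM with and 26.8 CPM without, 4.66-fold higher (4.35 to 4.996), Klf4 at 12.1 and 3.36 CPM, 3.58-fold higher (2.91 to 4.42), and Klf6 at 107 and 52.2 CPM, 2.05-fold higher (1.93 to 2.17). Of all 10286 genes measured 38.2% were called in LT-HSC, and 28.5% were called higher in LT-HSC cells with Hlf RNA, against 4 of 8 members, and 9.66% lower, against 0. The 1523 LT-HSC cells without Hlf RNA included 843 Car1-only and 305 Pf4-only cells, so this comparison overlaps with that by Car1 RNA below. From LT-HSC cells with none of the marker RNAs, Hlf-only cells differed less. Klf12 was at 104 CPM in Hlf-only cells and 50.01 CPM in those with no marker, and Klf2 at 141 and 85.1 CPM. Klf4 was at 15.8 and 8.51 CPM and Klf6 at 118 and 86.2 CPM. In ST-HSC, Klf12 was at 103 CPM in the 4467 cells with Hlf RNA and 23.4 CPM in the 1900 without it, 4.38-fold higher (4.08 to 4.69). It was the 1 member called there, where 26.2% of all genes were called, 18% higher and 8.27% lower. Klf2 was 1.25-fold higher (1.16 to 1.34) in the ST-HSC cells with Hlf RNA and Klf4 had a ratio of 0.839 (0.752 to 0.938).

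Klf12 was higher with each step in the amount of Hlf in ST-HSC. In ST-HSC it was at 23.4 CPM in cells with 0 Hlf UMIs of 5000, 75.4 CPM with 1 or 2, 109 CPM with 3 to 5, 155 CPM with 6 to 14 and 231 CPM (188 to 281) in the 43 cells with 15 or more. In LT-HSC it was at 10.9, 70.7, 112 and 116 CPM over the ranges of 0, 1 or 2, 3 to 5 and 6 to 14 UMIs, the last 2 intervals overlapping. Klf2 in LT-HSC was at 26.8, 100.4, 167 and 209 CPM over the same 4 ranges, while in ST-HSC it lay between 28.1 and 43.1 CPM over all 5. Klf4 in LT-HSC was at 3.36, 8.86, 16.6 and 26.5 CPM. Cycling cells became fewer along the same ranges, 41.5% with 0 and 4.65% with 15 or more Hlf UMIs in ST-HSC, and 41.4% with 0 and 1.15% with 6 to 14 in LT-HSC, and their part in these steps was not tested.

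Where Car1 RNA was present, Klf2, Klf4, Klf6 and Klf12 were lower in both libraries and Klf3 was not. In LT-HSC the same 4 members were called higher with Hlf RNA, and the comparisons by Hlf and by Car1 share cells, so they are not independent. In ST-HSC, Klf2 was at 10.3 CPM in the 615 cells with Car1 RNA and 36.8 CPM in the 5752 without it, a ratio of 0.280 (0.240 to 0.325). Klf12 had a ratio of 0.286 (0.259 to 0.316), Klf4 of 0.398 (0.319 to 0.491) and Klf6 of 0.441 (0.404 to 0.481). These are 4 of 8 members lower, where 43.9% of all genes were called, 29.7% lower and 14.1% higher. In LT-HSC, Klf12 was at 10.4 CPM in the 1140 cells with Car1 RNA and 64.4 CPM in the 1514 without, a ratio of 0.162 (0.145 to 0.181). Klf2 was at 24.8 and 100.3 CPM there, 0.247 (0.229 to 0.266), Klf4 had a ratio of 0.284 (0.225 to 0.356) and Klf6 of 0.598 (0.563 to 0.634), again 4 of 8 lower, where 36.9% of all genes were called, 28.6% lower and 8.29% higher.

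Klf3, a CtBP-binding repressor that the erythroid factor Klf1 activates, ran the other way without reaching the limit. It was at 56.7 CPM in ST-HSC cells with Car1 RNA and 42.4 CPM in those without, a ratio of 1.34 (1.25 to 1.43), and at 46.7 and 32.4 CPM in LT-HSC, 1.44 (1.33 to 1.57). Klf1 itself, which is no member, was at 251 CPM in Car1-only cells of ST-HSC and 148 CPM in those of LT-HSC, against 0.983 and 3.49 CPM in Hlf-only cells. In the cells with 15 or more Car1 UMIs of 5000, Klf2 was down to 1.84 CPM (0.981 to 3.15) in ST-HSC and 9.16 CPM in LT-HSC and Klf12 to 4.68 and 2.82 CPM, while Klf3 was at 62.6 and 50.2 CPM. Of these cells 82.2% in ST-HSC and 57.0% in LT-HSC were cycling. Without the cycling cells, 0 members were called by Car1 RNA in ST-HSC.

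Klf10 did not run one way along Car1 in LT-HSC. It was at 59.1 CPM in cells with 0 Car1 UMIs, 70.9 CPM with 1 or 2, 83.0 CPM with 3 to 5, 102 CPM with 6 to 14 and 54.5 CPM with 15 or more. The immediate early sum passed through the same course in the same cells, at 3152, 3676, 5087, 5865 and 2844 CPM. In ST-HSC Klf10 was at 40.7, 40.6, 47.3, 27.0 and 25.1 CPM over these ranges and the immediate early sum at 1683, 1703, 1623, 856 and 769 CPM. Whether the 2 courses are linked was not tested.

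Comparing the libraries within Car1-only cells (326 ST-HSC and 843 LT-HSC cells), 3 members were called lower in ST-HSC and 0 higher, where 27.3% of all genes were called, 11.4% lower and 15.9% higher. Klf6 was at 16.2 CPM in ST-HSC and 45.4 CPM in LT-HSC, a ratio of 0.356 (0.304 to 0.415). Klf10 was at 25.8 and 61.6 CPM, 0.419 (0.369 to 0.474), and Klf2 at 5.82 and 13.6 CPM, 0.429 (0.326 to 0.557). The immediate early sum in these cells was 870 CPM in ST-HSC and 3367 CPM in LT-HSC, and 77.3% of the ST-HSC and 52.3% of the LT-HSC cells were cycling, and the part of either was not tested. Klf4 and Klf12 were under 5 CPM in both libraries and were not called.

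Along Dntt, Klf3 was higher and Klf12 lower. By presence of Dntt alone, 0 of the 8 members were called in ST-HSC, where 6.9% of all genes were, 2.9% higher and 4% lower, and the furthest from 1 were Klf3 at 55.3 CPM in the 1558 cells with Dntt RNA and 41.1 CPM in the 4809 without, 1.34-fold higher (1.26 to 1.43), and Klf12 with a ratio of 0.742 (0.703 to 0.783). By amount, Klf3 was at 41.1, 42.8, 62.6, 76.6 and 122 CPM (98.1 to 150 in the last) in cells with 0, 1 or 2, 3 to 5, 6 to 14 and 15 or more Dntt UMIs of 5000. Klf12 was at 80.0, 71.7, 50.3, 39.8 and 1.37 CPM (0.0347 to 7.65 in the last, 1 UMI over 49 cells). The 2 CtBP-binding members thus ran in opposite directions along Dntt, and 15 UMIs or more was reached by 49 cells in all. Klf2 was at 31.2 CPM with 0 and 57.6 CPM (41.5 to 77.9) with 15 or more.

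With Mpo RNA, 3 members were lower. In ST-HSC cells with Mpo RNA (1141 against 5226 without), Klf12 had a ratio of 0.531 (0.498 to 0.566), Klf3 of 0.657 (0.608 to 0.709) and Klf2 of 0.660 (0.603 to 0.722), 3 of 8 members lower where 7.05% of all genes were called, 5.27% lower and 1.78% higher. All 5 others were also under 1, between 0.698 for Klf4 and 0.869 for Klf10. By amount, Klf12 was at 83.6, 58.8, 39.0, 24.4 and 8.37 CPM over the 5 ranges of Mpo UMIs, and Klf3 at 48.4, 39.7, 26.8, 17.7 and 14.97 CPM. Klf10 held its level to 5 UMIs, at 40.3, 41.8 and 41.9 CPM, and was at 19.8 and 13.9 CPM beyond. Klf2 and Klf3 were close to the limit, and with a 2-fold limit 0 members were called.

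With Pf4 RNA, Klf12 was higher in ST-HSC and Klf3 was lower in LT-HSC. In ST-HSC, Klf12 was at 142 CPM in the 430 cells with Pf4 RNA and 71.1 CPM in the 5937 without, 1.99-fold higher (1.85 to 2.14), the 1 member called where 9.88% of all genes were called, 5.3% higher and 4.58% lower. Of those 430 cells 287 also held Hlf RNA and no other marker, and in these Klf12 was at 172 CPM (158 to 186). In LT-HSC, Klf12 had a ratio of 0.904 (0.816 to 1.001), and the member called was Klf3, at 26.2 CPM in the 657 cells with Pf4 RNA and 45.2 CPM in the 1997 without, 0.579 (0.520 to 0.643), where 9.44% of all genes were called, 3.37% lower and 6.07% higher. Klf3 was at 45.2, 34.6, 24.8, 23.4 and 16.5 CPM over the 5 ranges of Pf4 UMIs in LT-HSC. It was no longer called with states read from full counts (log2 ratio -0.45), with levels from drawn UMIs (-0.36) or without cycling cells (-0.52), against -0.79 as given. Between the libraries, within Pf4-only cells (38 in ST-HSC, 305 in LT-HSC), Klf12 was at 85.4 CPM in ST-HSC and 17.3 CPM in LT-HSC, 4.92-fold higher (3.402 to 7.003). Klf3 and Klf6 passed the limit upwards too. So did Klf4, which rested on 5 UMIs in ST-HSC, reached the 5 CPM minimum through its ST-HSC level and had an interval that spans 1 (0.795 to 6.92). With it 4 of 8 passed the limit upwards where 45.5% of all genes were called, 27.8% higher and 17.7% lower. Pf4-only cells were not alike in the libraries. In ST-HSC they held Pf4 at 423 CPM and Hlf at 141 CPM, and in LT-HSC at 3914 and 46.9 CPM. The Klf12 level of Pf4-only cells in ST-HSC rested on 43 UMIs. What part the Pf4 and Hlf levels have in these ratios was not tested.

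**Figure D4:**
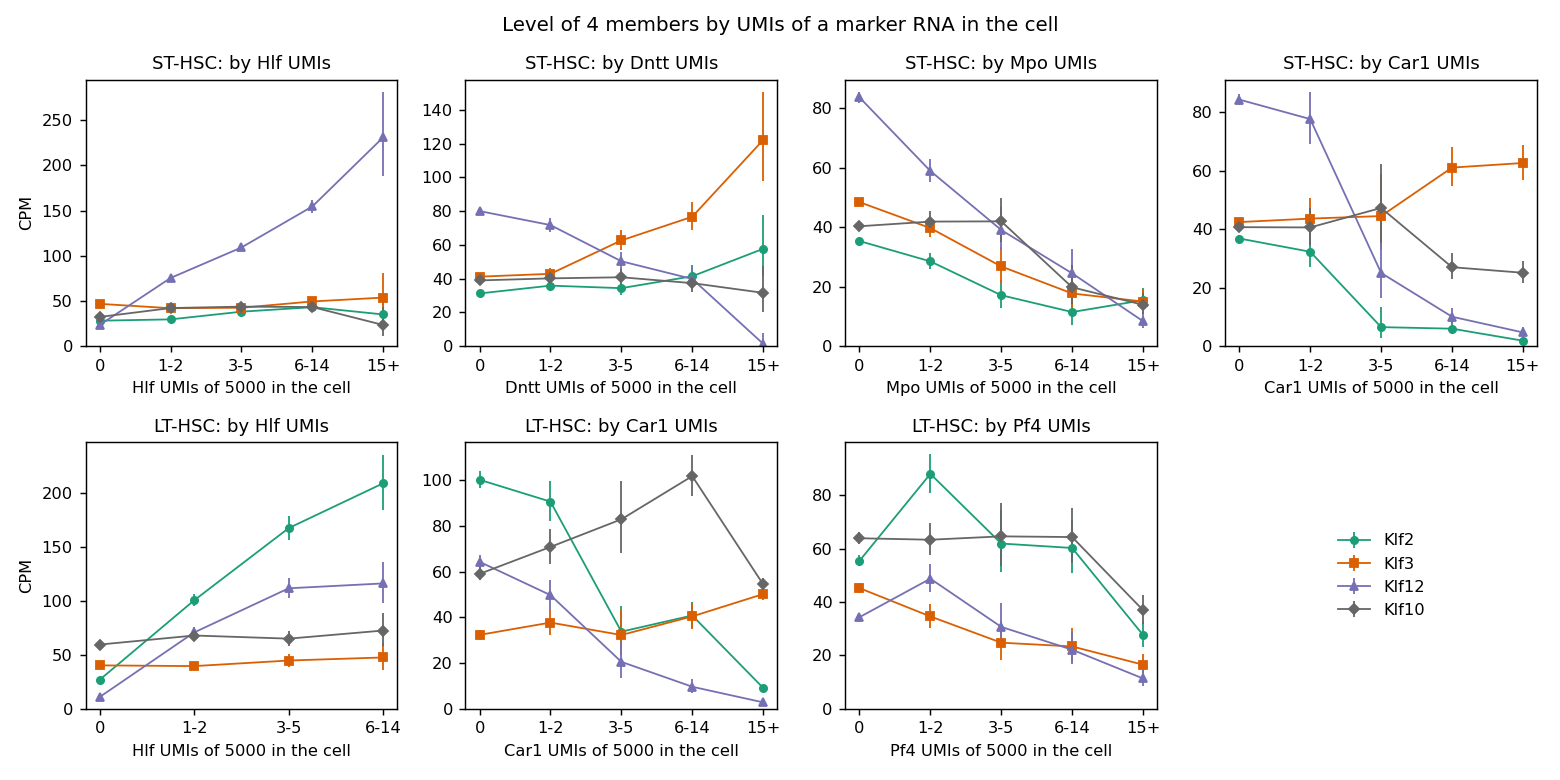
Level of Klf2, Klf3, Klf12 and Klf10 in CPM (vertical axes, linear from 0) in cells grouped by UMIs of a marker among 5000 (horizontal axes): Hlf, Dntt, Mpo and Car1 for ST-HSC in the top row, and Hlf, Car1 and Pf4 for LT-HSC in the bottom row. Lines on the points are 95% counting intervals. Klf12 was higher with more Hlf and lower with more Dntt, Mpo and Car1, and Klf3 reached 122 CPM with Dntt and was lower with more Mpo and Pf4.

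Klf4 stood highest in the ST-HSC cells with none of the 5 marker RNAs (671 in ST-HSC, 275 in LT-HSC). Klf4 was at 32.2 CPM (28.7 to 36.0) in ST-HSC and 8.51 CPM (6.08 to 11.6) in LT-HSC, 3.78-fold higher (2.71 to 5.40). Klf7 was also called higher, 2.09-fold (1.51 to 2.93), and Klf10 lower, 0.636 (0.546 to 0.741), so 2 of 8 were higher and 1 lower, where 38% of all genes were called, 19.9% higher and 18.1% lower. Markers of macrophages and monocytes moved with Klf4 here: all 6 of the list were found in ST-HSC and 5 in LT-HSC, and they summed to 215 CPM in ST-HSC and 7.87 CPM in LT-HSC. The ST-HSC cells with at least 1 such UMI (224 of 671) held 63.2 CPM of Klf4, 126 CPM of Klf2 and 186 CPM of Klf6, and the 447 without held 17.8, 32.2 and 68.0 CPM. Klf12 ran the other way there, at 23.5 CPM with and 64.4 CPM without. Among cells without these markers, Klf4 was at 17.8 CPM (14.7 to 21.3) in ST-HSC and 8.60 CPM (6.14 to 11.7) in the 271 such cells of LT-HSC.

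Over 12 classes of cells (6 marker states and cells with 2 or more markers in ST-HSC, 4 and those with 2 or more in LT-HSC), the members differed widely in how far their level ranged. Klf12 ranged 36.5-fold, from 120 CPM in Hlf-only cells of ST-HSC to 3.29 CPM in Car1-only cells of LT-HSC, and its first and second classes, both Hlf-only, did not overlap. Klf2 ranged 24.2-fold, from 141 CPM in Hlf-only cells of LT-HSC to 5.82 CPM in Car1-only cells of ST-HSC, its LT-HSC classes with 2 or more markers and with none overlapping at 88.2 and 85.1 CPM. Klf4 ranged 13.6-fold and Klf6 7.30-fold. Klf3 ranged 3.24-fold, with Dntt-only and Car1-only cells of ST-HSC overlapping at the top (62.7 and 62.3 CPM) and Mpo-only cells of ST-HSC and Pf4-only cells of LT-HSC at the bottom (20.7 and 19.4 CPM). Klf10 ranged 2.68-fold, with its 4 highest classes all in LT-HSC, and Klf7 2.43-fold. Klf13, present everywhere, ranged 1.69-fold, between 150 CPM in Hlf-only cells of ST-HSC and 89.2 CPM in Car1-only cells of LT-HSC, with every class overlapping the next.

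**Figure D5:**
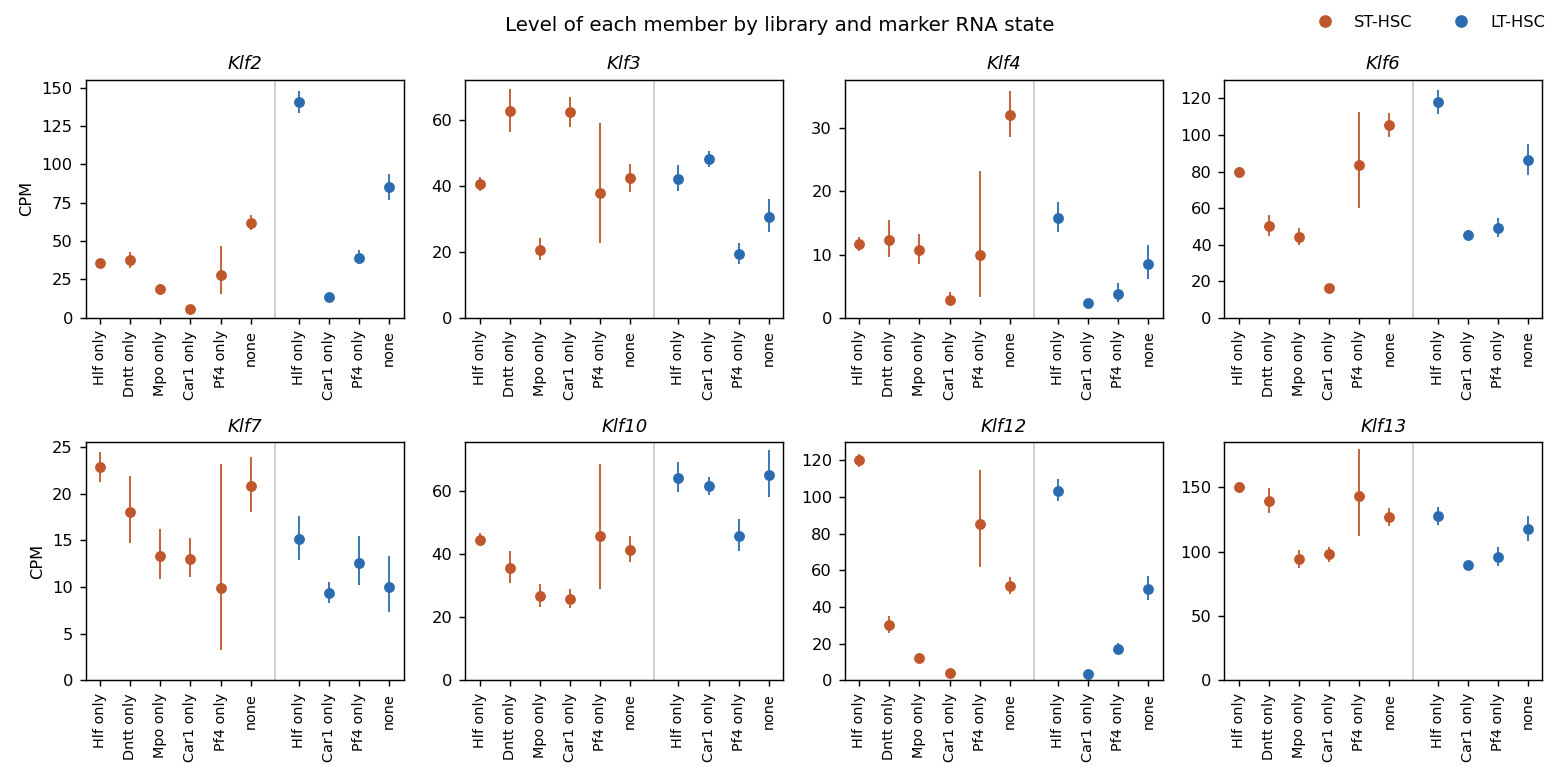
Level of each of the 8 genes in CPM (vertical axes, linear from 0) in cells with RNA of exactly 1 of the 5 markers or of none (horizontal axes), ST-HSC to the left of the grey line and LT-HSC to the right. Points are summed cells and lines are 95% counting intervals. Klf12 was high in Hlf-only cells of both libraries (120 and 104 CPM), Klf2 in those of LT-HSC (141 CPM), and Klf10 was lower in ST-HSC in 3 of the 4 states that both libraries show.

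The genes whose level over these 12 classes was most like each member were picked among 7047 genes with a mean of at least 20 CPM, by Pearson's r of log2(CPM + 1). The classes share libraries and depth, so r is a description. Klf2 was nearest to Mcl1, which protects cells from death (0.98), and then to Leprotl1 and Clec2d (both 0.97). Klf12 was nearest to Prdm16, a stem cell maintenance factor, Ltb and Socs5 (all 0.98), and Klf10 to the immediate early genes Egr1 (0.96) and Junb (0.96) and to Prkar1a (0.95). Klf6 was nearest to Fundc1 (0.97), Vamp4 and Dennd4a, Klf4 to Cdk14 (0.96), Marcks and Lsp1, and Klf13 to AU040320 (0.99), Zmym2 and AW554918. Klf7 was nearest to Ep300 (0.92), an acetyltransferase that KLFs recruit, Cep250 and Cul3, and Klf3 to Brf1 (0.89), Sox5 and Zc3hav1. Between members, r was highest for Klf2 and Klf6 (0.88), and lowest for Klf7 and Klf10 (-0.24).

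Cycling cells were lower in the same 4 members that were lower with Car1 RNA. Cells counted as cycling when the S and G2/M phase genes held at least 1% of their thinned UMIs, 31.1% of cells in ST-HSC and 27.4% in LT-HSC. In ST-HSC the ratio of cycling to other cells was 0.488 (0.465 to 0.512) for Klf12, 0.552 for Klf4, 0.581 for Klf2 and 0.581 for Klf6, 4 of 8 lower where 21.5% of all genes were called, 12.9% lower and 8.55% higher. In LT-HSC it was 0.195 (0.172 to 0.221) for Klf12, 0.278 for Klf2, 0.368 for Klf4 and 0.519 for Klf6, again 4 of 8, where 29.7% of all genes were called, 23% lower and 6.7% higher. Car1 RNA moved with cycling, at 771 CPM in cycling ST-HSC and 4653 CPM in cycling LT-HSC cells, and 402 and 3109 CPM over all cells, and its part was not tested. Among Hlf-only cells 0 members were called in ST-HSC, where 13.2% of all genes were, 6.75% higher and 6.46% lower. In LT-HSC 3 were called lower, where 24.3% of all genes were called, 10.5% higher and 13.8% lower, and 48 cells were cycling: Klf12 had a ratio of 0.551 (0.433 to 0.692) there, Klf6 of 0.635 and Klf2 of 0.663. With the limit for cycling at 2%, met by 226 ST-HSC and 41 LT-HSC cells, the LT-HSC ratios of Klf2, Klf6 and Klf12 turned to above 1 (log2 0.48, 0.67 and 0.46).

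Of the 18 other genes of the KLF and SP families, 9 were measured at 5 CPM or more, and 3 were lower in ST-HSC and 0 higher, against 10.3% and 24.9% of all genes. Klf1, the activator of globin genes, was at 31.8 CPM in ST-HSC and 76.7 CPM in LT-HSC, 2.42-fold lower. Within Car1-only cells Klf1 was higher in ST-HSC, at 250.5 CPM against 147.8 CPM in LT-HSC. Klf9, a Sin3-binding repressor, was at 37.4 and 62.6 CPM, 1.68-fold lower, and was lower in Hlf-only cells as well, at 45.8 and 92.4 CPM. Klf16, of the same branch, was at 8.48 and 13.2 CPM, 1.55-fold lower, and Klf11 at 7.65 and 8.27 CPM. Klf8, the third CtBP-binding member, was at 32.4 and 27.7 CPM. Sp1, Sp2, Sp3 and Sp4 had ratios of 1.27, 1.36, 1.15 and 1.35, and Klf17 and Sp8 had no UMI in either library.

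Partners and inputs of the members were read as lists. Of 13 cofactors 3 were called higher in ST-HSC and 1 lower, where 24.9% of all genes were higher and 10.3% lower, with a median log2 ratio of 0.05: the acetyltransferases Crebbp (2.44-fold) and Kat2b (1.97-fold) were higher, and Sap30, a part of the Sin3 complex, was 1.78-fold lower. The MEK5, ERK5 and MEF2 cascade and FOXO factors induce Klf2 and Klf4 in other cells, and their list also holds Hdac5 and Hdac7, deacetylases that restrain MEF2. Of its 10 measured genes 9 were higher in ST-HSC, Hdac5 (1.62-fold) among them, and 0 lower, against the same 24.9% and 10.3%, with a median of 0.92. Map3k3 was 2.81-fold higher, Foxo3 2.27-fold and Map2k5 2.26-fold, and in Hlf-only cells 5 of 10 were called higher, where 16.8% of all genes were higher and 12.5% lower. Among trafficking genes linked to Klf2 in lymphocytes, S1pr1, the receptor that guides cells out of tissues and a known target of Klf2 in T cells, was at 9.43 CPM in ST-HSC and 14.8 CPM in LT-HSC, 1.57-fold lower, and at 15.9 and 32.1 CPM in Hlf-only cells. Il7r, the interleukin receptor gene of lymphoid precursors, was at 10.99 CPM in ST-HSC and 0.603 CPM in LT-HSC. Of 9 genes of the TGF-beta pathway, which induces Klf10, 5 were higher in ST-HSC and 1 lower (Tgfb1, at 178 CPM in ST-HSC and 267 CPM in LT-HSC), again against 24.9% and 10.3%, with a median of 0.72. In Hlf-only cells Tgfb1 was not lower, at 166 CPM in ST-HSC and 137 CPM in LT-HSC. The higher ones included Smad3 (3.05-fold), Tgfbr2 (2.67-fold) and Ski (2.24-fold).

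In mm10, the build of the files, with GENCODE M21 coordinates, Klf2 is a gene of 2624 bases at chr8:72319033-72321656 on the plus strand and Klf12 one of 414048 bases at chr14:99870632-100284679 on the minus strand. Klf3 lies at chr5:64803388-64832901 (plus), Klf4 at chr4:55527143-55532466 (minus), Klf6 at chr13:5861482-5870394 (plus), Klf7 at chr1:64029447-64122282 (minus), Klf10 at chr15:38291463-38300706 (minus) and Klf13 at chr7:63886351-63938915 (minus), and all 8 are protein coding. Genes on the opposite strand, counted separately, over Klf3 (Gm20033) and Klf12 (4930517O19Rik) were at 2.49 and 4.18 CPM in ST-HSC and 2.66 and 2.91 CPM in LT-HSC.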

How the data were processed

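The deposited files hold UMI counts per gene and cell barcode for 1 ST-HSC and 1 LT-HSC library, made by the authors with Cell Ranger 7.2 on mm10 per the submitters' processing notes; the file headers name cellranger 7.1.0. The labels give the 10x 3' v2 kit. The smallest deposited cells had 501 UMIs in ST-HSC and 500 in LT-HSC. From these counts, cells were kept by the rule given in the report, UMIs of groups of cells were summed with numpy 2.4.6, pandas 2.3.3 and scipy 1.17.1 (python 3.11.15), and ratios were given with exact conditional binomial 95% intervals and levels with exact Poisson 95% intervals. Intervals cover counting error only. Marker states and cycling were read from 5000 UMIs drawn per cell (seed 11); levels within states used the full counts of those cells. No cell was removed as a doublet in the values reported: Scrublet, run in scanpy 1.11.5, marked 0 cells in ST-HSC and 7 in LT-HSC at its automatic threshold, and leaving out the 403 ST-HSC and 64 LT-HSC cells with the highest scores was an alternative. Scaling alternatives used edgeR 4.0.16 in R 4.3.3 for trimmed means only, with no test. The ratio code was tested on simulated data. The members and gene lists were chosen with earlier results of these data known. Genes named were the 8 members, the sorting genes, other KLF and SP genes at 5 CPM or more, the 3 measured genes of each list with the largest log2 ratio, and the 3 genes most like each member, except 1 gene of the trafficking list that is not reported here; Tgfb1, Klf17 and Sp8 were named after their values were seen. Comparisons within Car1-only, Pf4-only and marker-free cells, by immediate early UMIs, by cycling within Hlf-only cells and without shared barcodes were chosen after seeing the data.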

Additional observations from a re-analysis of the deposited data

Results flagged for a closer look

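For 3 members, the difference between cells of 1 library ran opposite ways in the libraries with both counting intervals clear of 1, and the difference between the libraries was not tested in any of them. Klf4 in cells with over without Hlf RNA had a log2 ratio of -0.253 in ST-HSC and 1.84 in LT-HSC. The cells without Hlf RNA were not alike in the libraries. In ST-HSC they included 671 cells with none of the 5 markers, at 32.2 CPM of Klf4. In LT-HSC they included 843 Car1-only cells at 2.38 CPM and 305 Pf4-only cells at 3.76 CPM. Hlf-only cells were at 11.6 CPM in ST-HSC and 15.8 CPM in LT-HSC. The part of this make-up was not tested. Klf10 in cells with over without Car1 RNA had a log2 ratio of -0.4128 in ST-HSC and 0.114 in LT-HSC. Klf3 in cycling over other cells had a log2 ratio of -0.1333 in ST-HSC and 0.303 in LT-HSC. Within Hlf-only cells the Klf3 ratio was under 1 in both libraries. It was 0.681 (0.606 to 0.764) in ST-HSC and 0.745 (0.531 to 1.02) in LT-HSC, where 48 cells were cycling.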

How the results depend on the processing

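Counts here are of members called at 1.5-fold unless said otherwise. Between the libraries (5 called) there were 3 without cells with Car1 or Pf4 RNA, 2 at a 2-fold limit, 3 in Car1-only cells and 3 in marker-free cells. Without Car1 and Pf4 cells, Klf4 turned to a log2 ratio of -0.0002358 and Klf12 to -0.11, and Klf7 turned to -0.35 in Pf4-only cells. In Hlf-only cells (2 called) 1 was left at 2-fold. By Hlf RNA in ST-HSC (1 called) there were 3 with at least 3 UMIs set against 0, and 2 each with states read from full counts, with levels from drawn UMIs and without cycling cells. By Dntt RNA (0 called) these were 2 with at least 3 UMIs, 1 with levels from drawn UMIs and 1 without cycling cells. By Mpo RNA (3 called) there were 6 with at least 3 UMIs and 0 at 2-fold. By Car1 RNA in ST-HSC (4 called) there were 0 without cycling cells. By Pf4 RNA in ST-HSC (1 called) there were 3 with at least 3 UMIs, 2 with levels from drawn UMIs, 2 without the highest Scrublet scores and 0 at 2-fold. By Pf4 RNA in LT-HSC (1 called) there were 2 with at least 3 UMIs, and 0 each with full-count states, without cycling cells and at 2-fold. By cycling in ST-HSC (4 called) there were 1 at 2-fold and 0 in Hlf-only cells, and in LT-HSC (4 called) 2 with cycling set at 2%. At that setting Klf12 turned to 0.057 in ST-HSC, and in LT-HSC Klf2 turned to 0.48, Klf6 to 0.67 and Klf12 to 0.46. The other KLF and SP genes (3 called) had 1 and the MEK5, ERK5, MEF2 and FOXO list (9 called) had 5 without Car1 and Pf4 cells. The causes were not tested. The other 64 alternative counts stayed within 1.5 times. No paired analysis was possible because each group had 1 library and the labels carry no replicate number.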

Other observations

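Among the 671 marker-free ST-HSC cells, levels of members differed with RNA of the dendritic cell list and of the T or NK cell list. The lists are not read as cell types here. Over the whole ST-HSC library, Flt3 at 291 CPM made up most of the dendritic cell list, whose next gene Xcr1 stood at 10.5 CPM, and Nkg7 at 128 CPM made up most of the T or NK cell list, whose next gene Ncr1 stood at 4.86 CPM. In the 424 cells with RNA of the dendritic cell list, Klf4 was at 37.5 CPM and Klf6 at 126 CPM, and in the 247 without at 22.8 and 69.0 CPM, while Klf12 was at 40.0 CPM with and 71.6 CPM without. In the 244 cells with RNA of the T or NK cell list, Klf12 was at 70.3 CPM and Klf10 at 58.3 CPM, and in the 427 without at 40.1 and 31.2 CPM, while Klf6 was at 63.0 CPM with and 131 CPM without.

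Klf13, which differed by 1.18-fold between libraries over Hlf-only cells, was higher in ST-HSC in each range of immediate early UMIs. It was at 117 CPM in ST-HSC and 90.4 CPM in LT-HSC in the lowest range, at 208 and 129 CPM in the middle one and at 248 and 156 CPM in the highest.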
